A study of Mus musculus with 8 samples.

Results

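A set of 9 genes of collagen maturation, of 43432 gene identifiers counted, was followed in lung myofibroblasts of mice at postnatal day 7. They were chosen by name for what their products do to new collagen chains. Serpinh1 encodes the collagen chaperone HSP47, P4ha1, P4ha2 and P4ha3 encode the alpha subunits of prolyl 4-hydroxylase, and Plod1, Plod2 and Plod3 encode lysyl hydroxylases. Bmp1 encodes a propeptide-cleaving protease and Pcolce encodes its enhancer. Each of the 9 mapped to 1 row of the table, and all 9 passed the filter on low counts. Of the 8 libraries, 4 carried the label Fra-2 transgenic, with constitutive expression of Fra-2, and are called the Fra-2-labelled libraries or Fra-2 1 to Fra-2 4. The other 4 were labelled wild type and are called control 1 to control 4. Both groups were lung myofibroblasts of the C57BL/6 background at the same age. The labels name neither the promoter that drives the transgene nor the way the cells were isolated, and the tissue label of the transgenic libraries also holds the word control.

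Procollagen chains are hydroxylated on proline and lysine in the endoplasmic reticulum (ER) while they are being made. Hydroxyproline stabilises the triple helix, hydroxylysine carries sugars and later cross-links, and HSP47 binds the folded helix until it leaves the ER. Outside the cell the propeptides are removed and the trimmed molecules assemble into fibrils. Myofibroblasts of the postnatal lung make much of the matrix of the growing alveolar walls.

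Library totals were 29926239 to 41335957 counts. Fosl2, which encodes Fra-2, measured 166, 134, 126 and 104 CPM (counts scaled to a common library size with TMM) in Fra-2 1 to Fra-2 4, against 105, 117, 141 and 119 CPM in control 1 to control 4. The groups overlapped (log2 fold change 0.14, SE 0.136 and edgeR adjusted p = 0.888), so the groups are called by their labels. The labels do not say whether the transcript of the transgene would be counted on Fosl2. The 10 alveolar myofibroblast and smooth muscle markers summed to 16620 to 18730 CPM in the Fra-2-labelled libraries and 16380 to 18230 CPM in the controls. The 9 epithelial markers summed to 116 to 224 CPM and 58.5 to 139 CPM, and the 8 blood and immune markers to 96.3 to 132 CPM and 80.4 to 159 CPM, in the same order of groups. None of these markers was at 0 in any library. Control 2 stood apart in that 8.97% of its counts fell on genes that are not protein coding, against 1.17% to 3.17% in the other 7 libraries, and 10.6% on mitochondrial genes, against 3.77% to 7.38%. Whether replicates are separate animals is not stated. Sex-linked genes marked both female and male libraries within each group, so neither group was a single animal measured repeatedly. Libraries of the same sex in a group may still share an animal, and part of the spread behind the p-values may be technical. In bulk samples, fewer cells of a type and less RNA per cell cannot be told apart.

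The 9 genes differed far more from each other than between groups. To compare genes, counts were also divided by the summed exon length of each gene and scaled to a fixed total per library (TPM). On this scale P4ha3 led, followed by Serpinh1, Plod2, Plod3, Pcolce, Bmp1, P4ha1, Plod1 and P4ha2. P4ha3 measured 3986 to 4857 TPM over the 8 libraries and ranked at position 17 of all genes by mean TPM. Serpinh1 measured 980 to 2218 TPM and ranked at position 46. Plod2 measured 174 to 279 TPM, and P4ha2, the lowest, 18.6 to 26.5 TPM.

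**Figure D1:**
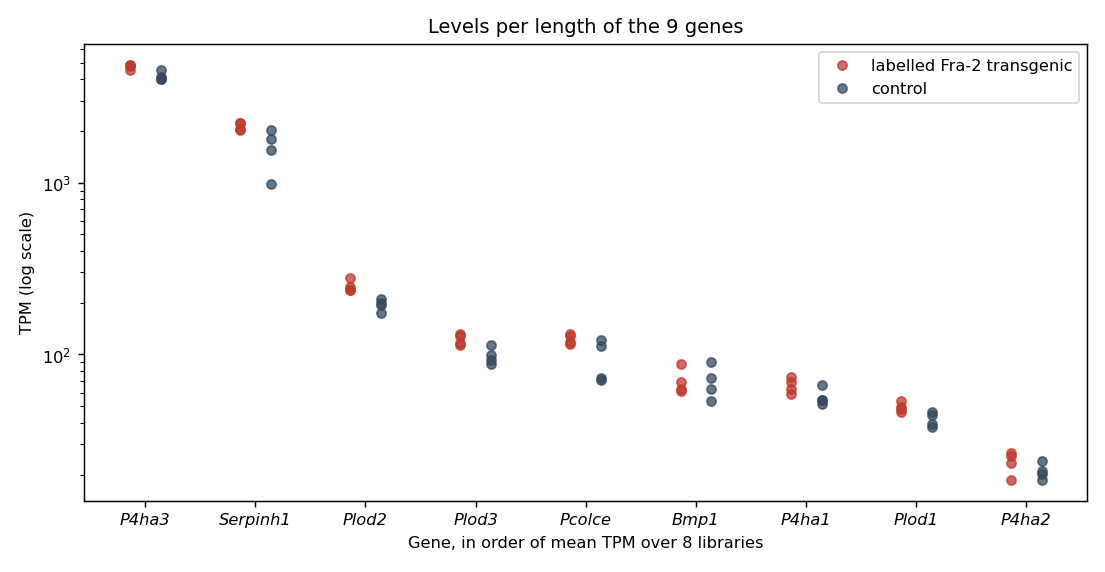
TPM of the 9 genes in each library, on a log axis, in order of their mean over 8 libraries, with the Fra-2-labelled libraries left of the controls. P4ha3 and Serpinh1 lie above the other 7 genes in every library, while Plod3 and Pcolce, and Bmp1 and P4ha1, overlap.

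Neighbours in this order were not all separate. P4ha3 exceeded Serpinh1 by a median of 2.22 times within a library (2.02 to 4.07 times), and Serpinh1 exceeded Plod2 by a median of 8.43 times. Plod2 exceeded Plod3 in each of 8 libraries, by a median of 1.999 times. Plod3 and Pcolce did not differ beyond their spread, since Plod3 was higher in 4 of 8 libraries with a median ratio of 1.01. Bmp1 and P4ha1 likewise did not, with Bmp1 higher in 4 of 8 libraries and a median ratio of 1.004. That near equality depended on the length used, since with the longest transcript of each gene in place of the summed exons Bmp1 was higher in all 8 libraries, by a median of 1.63 times. P4ha1 exceeded Plod1 in all 8 libraries by a median of 1.34 times, but their ranges overlapped, and with the longest transcript the order turned, Plod1 being higher in all 8 by a median of 1.21 times.

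Prolyl 4-hydroxylase is a tetramer in which the catalytic alpha subunit is the product of P4ha1, P4ha2 or P4ha3, and the beta subunit is P4hb, protein disulfide isomerase. P4ha3 (ENSMUSG00000051048, chromosome 7, 100285520 to 100319699 in GRCm38) made up 97.8%, 98.4%, 98.1% and 98.3% of the summed alpha subunit TPM in Fra-2 1 to Fra-2 4, against 98.3%, 98.3%, 98.2% and 97.9% in control 1 to control 4. The share thus varied by less than 1 percentage point over the 8 libraries. P4ha3 exceeded P4ha1 by a median of 75.1 times and P4ha2 by a median of 197 times in TPM, and with the longest transcript by 96.3 and 126 times. No other annotated gene overlaps P4ha3, P4ha1 or P4ha2. The mean share of P4ha3 was 98.2% with that length. P4hb measured 1086, 934, 950 and 933 TPM in Fra-2 1 to Fra-2 4, against 972, 760, 855 and 1049 TPM in control 1 to control 4. The summed TPM of the alpha subunit genes thus exceeded that of P4hb in every library, with P4hb at 0.189 to 0.235 of the alpha subunit sum in the Fra-2-labelled libraries and 0.187 to 0.25 in the controls.

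The promoter windows of the alpha subunit genes are shown because their transcripts differed most among the 9 genes. Each holds the 250 bases before and the 50 bases after the RefSeq start site, on the coding strand of GRCm38.p6. The window of P4ha1 is chr10:59323046-59323345 on the plus strand, that of P4ha2 chr11:54100674-54100973 on the plus strand and that of P4ha3 chr7:100285270-100285569 on the plus strand. The outermost GENCODE start of P4ha2 lies upstream of its window. Capitals mark matches to 5 motifs searched on both strands. The AP-1 motif was searched as TGANTCA. The core of hypoxia response elements was searched as ACGTG and, in its other common form, as GCGTG. The box bound by the TATA-binding protein was searched as TATAAA. The box bound by the factor NF-Y was searched as CCAAT. The heat shock element was searched as GAANNTTC.
P4ha1: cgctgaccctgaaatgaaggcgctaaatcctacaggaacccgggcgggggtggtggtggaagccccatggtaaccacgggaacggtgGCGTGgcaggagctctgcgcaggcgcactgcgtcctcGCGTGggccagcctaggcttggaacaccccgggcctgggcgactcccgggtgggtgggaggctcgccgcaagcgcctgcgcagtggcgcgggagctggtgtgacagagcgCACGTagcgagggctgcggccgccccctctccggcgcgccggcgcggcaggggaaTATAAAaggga
P4ha2: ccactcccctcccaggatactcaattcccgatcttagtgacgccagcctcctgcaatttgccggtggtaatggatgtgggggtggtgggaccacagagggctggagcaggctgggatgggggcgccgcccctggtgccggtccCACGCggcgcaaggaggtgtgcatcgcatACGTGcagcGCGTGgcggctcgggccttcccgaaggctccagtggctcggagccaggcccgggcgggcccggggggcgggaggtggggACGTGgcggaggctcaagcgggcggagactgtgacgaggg
P4ha3: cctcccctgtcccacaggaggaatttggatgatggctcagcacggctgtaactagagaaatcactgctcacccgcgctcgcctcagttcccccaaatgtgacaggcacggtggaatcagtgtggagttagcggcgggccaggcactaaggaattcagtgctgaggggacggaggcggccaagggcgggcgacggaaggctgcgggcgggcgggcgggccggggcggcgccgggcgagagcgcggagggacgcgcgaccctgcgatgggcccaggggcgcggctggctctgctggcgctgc

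The P4ha1 window held 3 matches to the hypoxia response core, beginning at -163, -126 and -16 from the start site, and a TATAAA at 40 downstream of it. The P4ha2 window held 4 matches to the core, beginning at -107, -78, -69 and 11. The P4ha3 window held no match to any of the 5 motifs. Windows were found for 7 of the 9 genes, and 6 of these 7 held the hypoxia core, which 43.8% of all 32851 windows of the same length held. None of the 7 held TGANTCA, the site that AP-1 factors such as Fra-2 recognise, which 7.81% of all windows held. GC content was 70.3% for P4ha1, 70.3% for P4ha2 and 69.3% for P4ha3. These matches describe the letters of the windows and not binding.

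Between the groups, no member of the set passed the test over all genes. With edgeR's quasi-likelihood test and an adjusted p under 0.05, 0 of the 9 rose and 0 fell, where 1.02% of the 15422 genes tested passed, 0.72% upwards and 0.298% downwards. DESeq2, which called 2.71% of the genes it adjusted, also called 0 of the 9. So did limma-voom, which called 109 genes higher and 40 lower of 15422. At an unadjusted p under 0.05, 3 of the 9 passed in edgeR (Plod2, Plod3 and Serpinh1), against 8.71% of all genes in edgeR. In each of the other tools 3 passed as well, without a share of all genes to set beside them. The log2 fold change was above 0 for 8 of the 9, against 47.8% of all genes, and its median was 0.17 over the 9 genes and -0.01 over all genes. No gene of the set had groups that did not overlap in CPM, a separation seen in 5.76% of all genes. In TPM, which lacks the TMM correction, the groups of 4 of the 9 (P4ha3, Plod1, Plod2 and Plod3) did not overlap, against 5.33% of all genes. The 95% interval of the fold change lay below a doubling for each of the 9 genes.

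**Figure D2:**
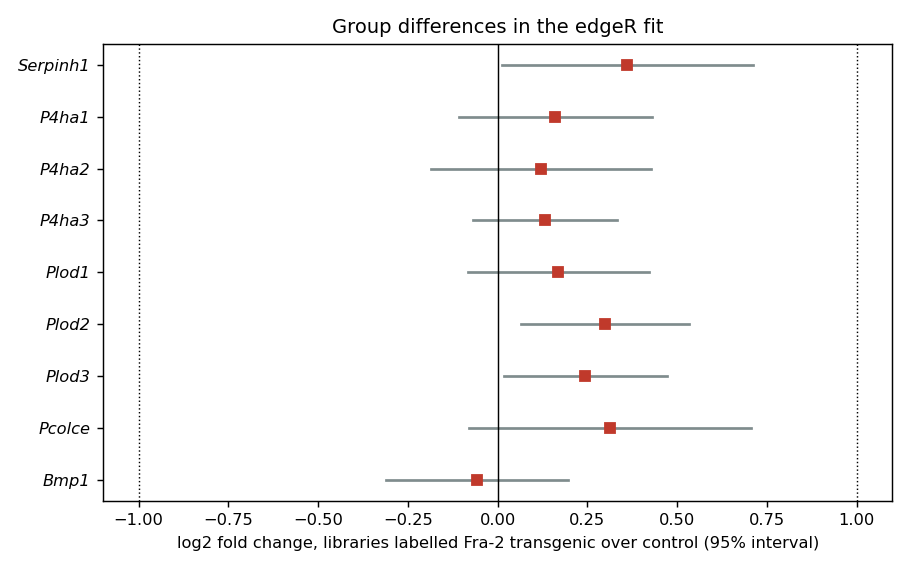
Log2 fold change of each gene (square) with its 95% interval (line) in the edgeR fit, Fra-2-labelled libraries over control; dotted lines mark 2-fold changes. The points run from -0.06 for Bmp1 to 0.36 for Serpinh1, and every interval ends short of both dotted lines.

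Serpinh1 (ENSMUSG00000070436, chromosome 7, 99345376 to 99353239) showed the largest difference of the set. It measured 1083, 1132, 1213 and 1284 CPM in Fra-2 1 to Fra-2 4, against 795, 629, 1070 and 1175 CPM in control 1 to control 4. The Fra-2-labelled libraries were close together, while control 1 and control 2 lay well below them, control 3 just below them and control 4 among them. The group difference on the log2 scale was 0.36 (SE 0.163 and edgeR adjusted p = 0.546), with a fold change of 1.28 and a 95% interval of 1.01 to 1.64. Without control 4 it was 0.50 (edgeR adjusted p = 0.165), without control 2 it was 0.22 (edgeR adjusted p = 0.868), and without control 1 and control 2 it was 0.07 (edgeR adjusted p = 0.98). The SD was 27.3% of the mean in the controls and 7.52% in the Fra-2-labelled libraries.

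**Figure D3:**
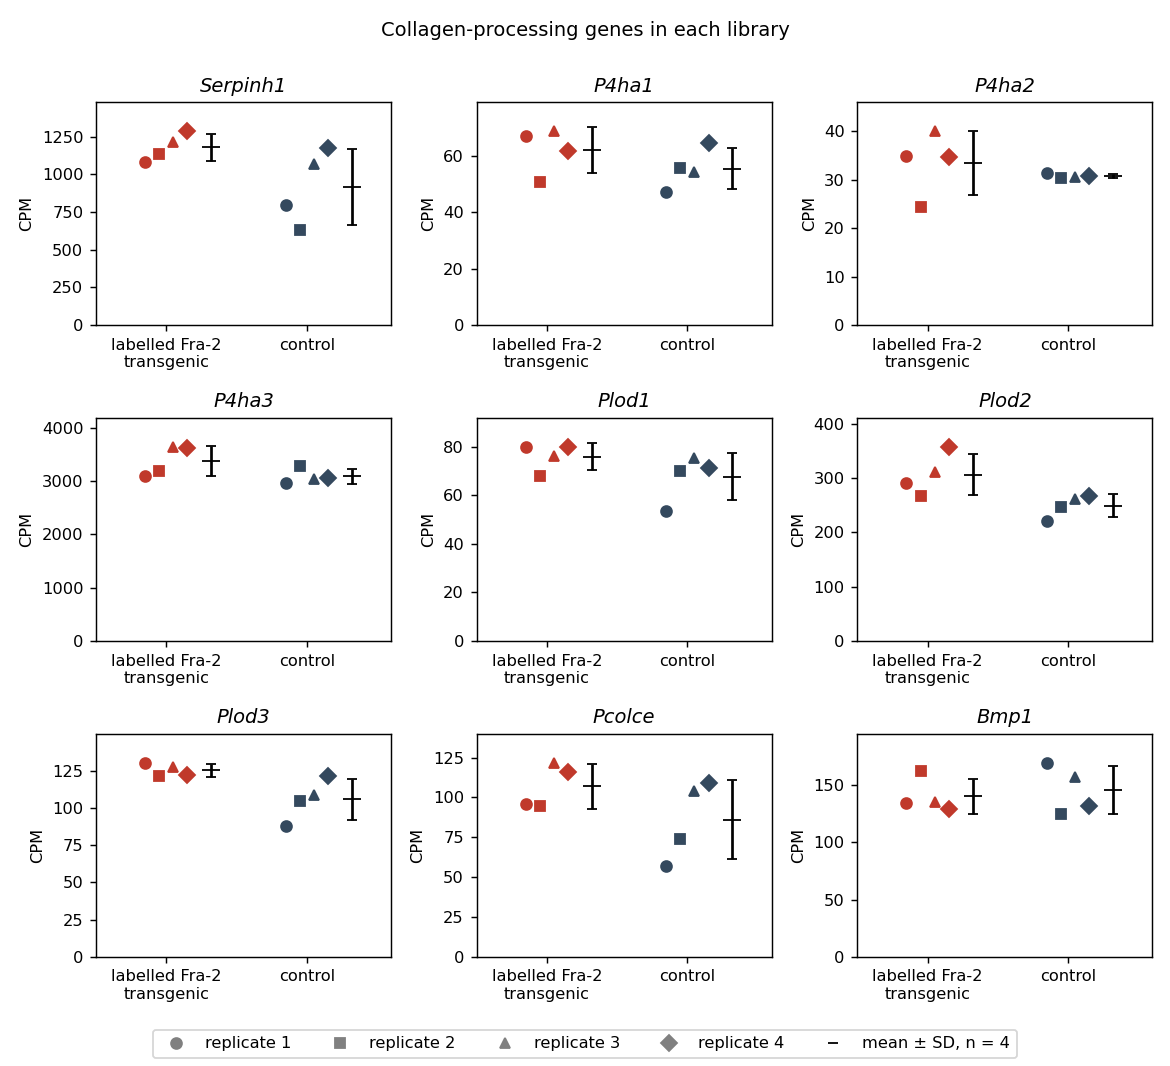
CPM of each of the 9 genes in each library (marker shape gives the replicate number), with the mean and SD of 4 libraries per group in black, the Fra-2-labelled libraries left of the controls. The groups overlap in all 9 panels, and Serpinh1 and Pcolce are low in control 1 and control 2.

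Among the alpha subunit genes, P4ha3 measured 3092, 3180, 3632 and 3614 CPM in Fra-2 1 to Fra-2 4, against 2967, 3282, 3031 and 3053 CPM in control 1 to control 4. Fra-2 3 and Fra-2 4 were above every control, and the others lay within the control range. This gave a log2 fold change of 0.13 (SE 0.0937 and edgeR adjusted p = 0.803) and a 95% interval of the fold change from 0.954 to 1.26. P4ha1 (ENSMUSG00000019916, chromosome 10, 59323296 to 59373304) measured 66.8, 50.7, 68.6 and 61.7 CPM, against 47.2, 55.7, 54.2 and 64.5 CPM in control 1 to control 4. Its log2 fold change was 0.16 (edgeR adjusted p = 0.832), and the libraries interleaved.

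P4ha2 (ENSMUSG00000018906, chromosome 11, 54100095 to 54131665) measured 35.0, 24.3, 40.0 and 34.7 CPM in Fra-2 1 to Fra-2 4, against 31.4, 30.5, 30.5 and 30.8 CPM in control 1 to control 4. The controls were nearly equal, with an SD of 1.38% of their mean, which is below the counting error of 3.03% that their counts carry, while the Fra-2-labelled libraries lay on both sides of them with an SD of 19.7%. The log2 fold change was 0.12 (edgeR adjusted p = 0.917), and it was 0.25 without Fra-2 2 and 0.03 without Fra-2 3. In CPM, Fra-2 2 was the lowest library of its group for P4ha1, P4ha2, Plod1, Plod2, Plod3 and Pcolce, and the highest for Bmp1.

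Lysyl hydroxylases differ in where on the chain they act. The product of Plod2 hydroxylates lysines of the telopeptides, which form the pyridinoline cross-links known from stiff and scarred tissue, that of Plod1 acts on the helix, and that of Plod3 also attaches sugars to hydroxylysine. Plod2 (ENSMUSG00000032374, chromosome 9, 92542223 to 92608428) measured 290, 267, 311 and 357 CPM in Fra-2 1 to Fra-2 4, against 220, 247, 261 and 267 CPM in control 1 to control 4. The groups touched at one point, where Fra-2 2, at 266.8 CPM, lay just below control 4, at 267.1 CPM. On the log2 scale the group difference was 0.30 (SE 0.109 and edgeR adjusted p = 0.368, fold change 1.23 with a 95% interval of 1.05 to 1.45). This was the smallest adjusted p of the 9 genes. Without control 1 and control 2 the log2 fold change was 0.21 (edgeR adjusted p = 0.912). Plod2 overlaps Gm38391, an unverified transcript on the opposite strand that held 519 counts over the 8 libraries.

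Plod3 (ENSMUSG00000004846, chromosome 5, 136987019 to 136996648) measured 130, 121, 127 and 122 CPM in Fra-2 1 to Fra-2 4, against 88.0, 105, 108 and 122 CPM in control 1 to control 4. Only control 4, at 121.6 CPM, reached the range of the Fra-2-labelled libraries, whose lowest was 121.2 CPM. Its log2 fold change came to 0.24 (SE 0.106 and edgeR adjusted p = 0.52). Plod3 overlaps Znhit1 on the opposite strand by 1003 bases, and reads there cannot be told apart without strand, but Znhit1 held 4888 counts over the 8 libraries against 31939 for Plod3. Plod1 (ENSMUSG00000019055, chromosome 4, 147909753 to 147936767) measured 67.8 to 79.7 CPM in the Fra-2-labelled libraries and 53.4 to 75.5 CPM in the controls (log2 fold change 0.17, edgeR adjusted p = 0.798). In CPM, control 1 was the lowest library for each of Plod1, Plod2 and Plod3, while in TPM control 2 was the lowest for Plod2 and Plod3.

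The shares of the lysyl hydroxylase genes varied little. Plod2 made up 57.0%, 57.3%, 59.4% and 63.0% of their summed TPM in Fra-2 1 to Fra-2 4, against 59.9%, 57.8%, 58.0% and 57.0% in control 1 to control 4. Plod3 made up 25.7% to 31.1% in the Fra-2-labelled libraries and 28.5% to 30.9% in the controls. Plod1 made up 11.2% to 12.5% and 11.6% to 13.3% in the same order. Fra-2 4 had the highest Plod2 share and the lowest Plod3 share of the 8 libraries, and the groups overlapped for all of these shares.

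Bmp1 and Pcolce act together on the C-propeptide of procollagen, one as the protease and the other as the glycoprotein that speeds the cut. Pcolce (ENSMUSG00000029718, chromosome 5, 137605103 to 137613784) measured 95.7, 94.4, 122 and 116 CPM in Fra-2 1 to Fra-2 4, against 57.1, 73.7, 104 and 109 CPM in control 1 to control 4. As for Serpinh1, control 1 and control 2 were well below the Fra-2-labelled libraries, and control 3 and control 4 lay within their range. Pcolce had a log2 fold change of 0.31 (SE 0.181 and edgeR adjusted p = 0.713). It was 0.16 without control 1 (edgeR adjusted p = 0.934) and 0.0012 without control 1 and control 2 (edgeR adjusted p = 0.998). Pcolce overlaps Fbxo24 on the same strand, which held 96 counts over the 8 libraries.

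Bmp1 (ENSMUSG00000022098, chromosome 14, 70474558 to 70520234) was the one gene of the set with a log2 fold change below 0. It measured 135, 162, 135 and 129 CPM in Fra-2 1 to Fra-2 4, against 170, 125, 158 and 132 CPM in control 1 to control 4. The high libraries were Fra-2 2, control 1 and control 3, and the groups overlapped throughout. With all libraries its log2 fold change was -0.06 (SE 0.118 and an edgeR adjusted p = 0.955), and it became 0.03 without control 1 (edgeR adjusted p = 0.992). Its fold change had a 95% interval of 0.807 to 1.14. Control 1 was thus the highest of all libraries for Bmp1 and the lowest for Pcolce.

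**Figure D4:**
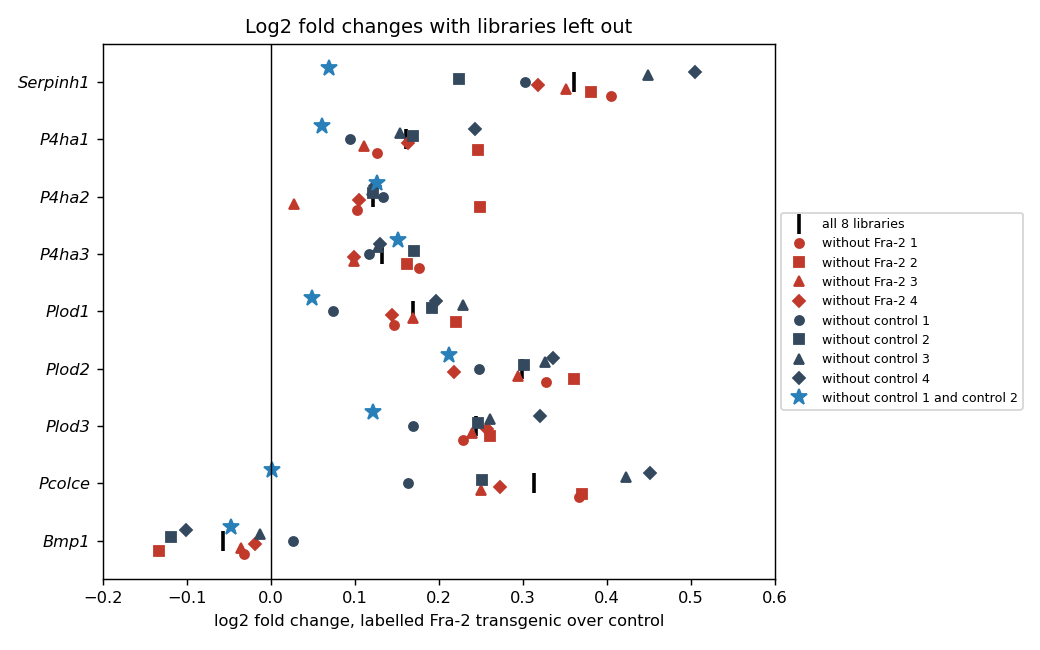
Log2 fold change of each gene with all 8 libraries (bar) and with libraries left out (markers), labelled Fra-2 transgenic over control. Leaving out control 1 and control 2 together moves Serpinh1 to 0.07 and Pcolce to 0.0012, while P4ha3 stays between 0.10 and 0.18 in all of these fits.

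Control 1 and control 2 also had low sums of the 6 adventitial fibroblast markers, at 575 and 630 CPM, against 731 and 768 CPM in control 3 and control 4. The Fra-2-labelled libraries had 836, 651, 899 and 869 CPM, and Dcn, which encodes the collagen-binding proteoglycan decorin, was the marker of this list that passed upwards (log2 fold change 0.60, edgeR adjusted p = 0.0323). The Dcn call was lost without control 1, 2 or 3 or Fra-2 1, 3 or 4, with an edgeR adjusted p of up to 0.1475. The 4 cartilage markers, led by Col2a1, summed to 56.3 to 73.6 CPM in the Fra-2-labelled libraries and 35.7 to 47.7 CPM in the controls. The 4 mesothelial markers summed to 4.46 to 10.7 CPM and 1.79 to 4.84 CPM. Of these markers, 2 of cartilage and 3 of mesothelium were tested, and none of them passed alone by edgeR. Comp, Col9a1 and Wt1 did not pass the filter on low counts. The mesothelial marker Wt1 had no counts in 3 of the 4 controls and the cartilage marker Col9a1 none in 2 of the 4 Fra-2-labelled libraries. The 4 pericyte markers summed to 1423 to 1727 CPM in the Fra-2-labelled libraries and 1705 to 2031 CPM in the controls. Rgs5, the most abundant of them, measured 1025 ± 141 and 1391 ± 95.7 CPM (SD, n = 4 each; log2 fold change -0.44, edgeR adjusted p = 0.092), while the other 3 had log2 fold changes above 0 and also did not pass. The 7 endothelial markers summed to 94.5 to 108 CPM in the Fra-2-labelled libraries and 75.5 to 106 CPM in the controls. The 4 lipofibroblast markers summed to 84.4 to 93.4 CPM and 67.35 to 88.3 CPM. Control 1 was the lowest library for each of these sums except the pericyte one, and for the epithelial and the blood and immune sums. Control 2 was the highest control for the endothelial and the lipofibroblast sums. The part of these cells in the values of Serpinh1 and Pcolce was not tested.

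The chaperone and modifying enzymes were set beside their main substrates, the 9 fibrillar collagen genes fixed in a list. Serpinh1 had 4.45, 4.998, 5.31 and 5.99 counts per 100 fibrillar collagen counts in Fra-2 1 to Fra-2 4, against 3.88, 2.88, 5.16 and 5.64 in control 1 to control 4. The 8 genes other than P4ha3 together had 7.87, 8.48, 9.17 and 10.2 counts per 100, against 7.13, 6.12, 8.97 and 9.46 in the controls. All 9 together had 20.6, 22.5, 25.1 and 27.1 counts per 100, against 21.6, 21.2, 23.6 and 24.1 in the controls, and P4ha3 supplied 61.8% to 63.4% and 60.8% to 71.1% of them in the 2 groups. The groups overlapped in each ratio. Of the 9 fibrillar collagen genes, 0 rose and 0 fell by edgeR, and their median log2 fold change was 0.11. An unadjusted edgeR p under 0.05 was seen for 4 of the 9, against 8.71% of all genes. Of these 4, Col1a2, Col2a1 and Col5a3 were higher in the Fra-2-labelled libraries and Col11a2 was lower. Col1a2, the alpha-2 chain of type I collagen, had the highest mean CPM of the 9 fibrillar collagen genes over both groups. It measured 7468 ± 596 CPM in the Fra-2-labelled libraries and 6223 ± 340 CPM in the controls (SD, n = 4 each, edgeR adjusted p = 0.34). Col3a1 was close to it, at 7107 ± 211 and 6576 ± 465 CPM, and had more counts in total. Per length, Col1a1 was the highest, at 3915 TPM against 3026 TPM for Col3a1 and 2388 TPM for Col1a2. Col1a1, the alpha-1 chain of type I collagen, measured 5852 ± 602 and 6056 ± 678 CPM (log2 fold change -0.05, edgeR adjusted p = 0.958). Col5a3, a minor type V chain with the smallest p, measured 4.39 ± 1.77 and 1.80 ± 0.309 CPM (edgeR adjusted p = 0.0871).

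**Figure D5:**
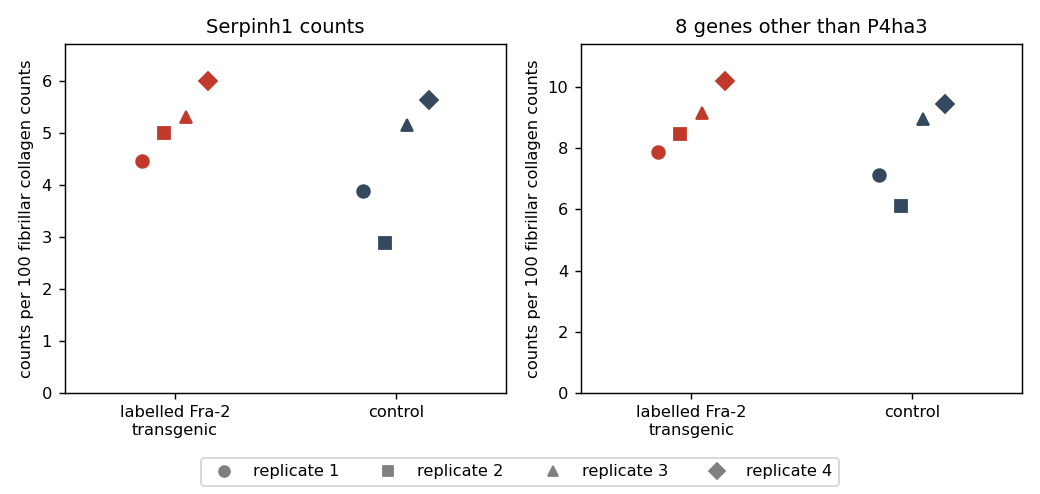
Counts of Serpinh1 (left) and of the 8 genes other than P4ha3 (right) per 100 counts of 9 fibrillar collagen genes, per library, with the Fra-2-labelled libraries left of the controls and marker shape giving the replicate number. Control 1 and control 2 are the lowest points in both panels.

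The ER partners of these enzymes did not pass. Of 22 such genes, 0 rose and 0 fell by edgeR, 1 had an unadjusted p under 0.05 and the median log2 fold change was 0.04. P4hb measured 632 ± 52.4 CPM in the Fra-2-labelled libraries and 615 ± 65.0 CPM in the controls (SD, n = 4 each; edgeR adjusted p = 0.967). P3h1 and Crtap, whose products form the prolyl 3-hydroxylase complex, had log2 fold changes of 0.12 and 0.10. Fkbp10, which encodes the prolyl isomerase FKBP65, had one of 0.05, and the ER chaperone gene Hspa5 one of -0.01. Sparc, a collagen-binding matricellular protein and the most abundant of the list, measured 11010 ± 676 and 9573 ± 1558 CPM (edgeR adjusted p = 0.703). Colgalt2, a collagen galactosyltransferase gene with the smallest p, measured 1.77 ± 0.38 and 3.36 ± 0.877 CPM (log2 fold change -0.92, edgeR adjusted p = 0.241).

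Of the other propeptide-processing and convertase genes, Pcolce2 rose in the Fra-2-labelled libraries. This gene encodes the second procollagen C-proteinase enhancer, and it measured 98.3 ± 6.32 CPM in the Fra-2-labelled libraries and 70.7 ± 7.33 CPM in the controls (SD, n = 4 each). Its log2 fold change was 0.47 (SE 0.104 and edgeR adjusted p = 0.0459). The call was lost without control 1, 2 or 3 or Fra-2 1, 3 or 4, with an edgeR adjusted p of up to 0.2, and the log2 fold change stayed between 0.41 and 0.52 without any one library. In limma-voom the adjusted p was 0.0509, and with sex as a covariate in edgeR it was 0.0817. Among the 9 tested genes of this list 1 rose and 0 fell by edgeR, where 1.02% of all genes passed, and the other 8 failed the threshold. An unadjusted edgeR p under 0.05 was seen for 4 of the 9, against 8.71% of all genes, and the median log2 fold change was 0.17. Adamts2, the main N-propeptidase and the most abundant of them, measured 1054 ± 49.5 and 883 ± 55.6 CPM (log2 fold change 0.26, edgeR adjusted p = 0.334). Furin, the convertase that activates the Bmp1 protease family, measured 72.4 ± 9.94 and 71.4 ± 12.7 CPM. Tll1, a close relative of Bmp1, measured 0.724 ± 0.42 and 0.188 ± 0.0936 CPM (edgeR adjusted p = 0.308). Tll2, its other relative, had 0 counts in all 8 libraries.

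Among 11 collagen export genes 1 rose and 0 fell by edgeR, where 1.02% of all genes passed, and the other 10 failed the threshold. An unadjusted edgeR p under 0.05 was seen for 2 of the 11, against 8.71% of all genes, and the median log2 fold change was -0.01. The riser was Creb3l1, which encodes a membrane-bound transcription factor known in mice for driving type I collagen transcription in bone. It measured 227 ± 16.6 CPM in the Fra-2-labelled libraries and 109 ± 10.4 CPM in the controls (SD, n = 4 each; log2 fold change 1.06, SE 0.102 and edgeR adjusted p = 0.00014), and it passed without each library in turn (edgeR adjusted p up to 0.00157). The call was lost in the male libraries alone (log2 fold change 1.11, edgeR adjusted p = 0.505), where 3 of all genes were higher and 0 lower. Sec31a, a coat protein of the vesicles that leave the ER and the highest of the list in CPM, measured 567 ± 23.2 and 538 ± 49.0 CPM (edgeR adjusted p = 0.927). Per length, Sar1a was higher, at 395.8 TPM against 303.1 TPM for Sec31a. Mia3, which encodes the collagen export receptor TANGO1, measured 126 ± 7.68 and 127 ± 16.9 CPM (edgeR adjusted p = 0.991). Sec24d had a log2 fold change of 0.21 (edgeR adjusted p = 0.566).

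Among the 5 cross-linking oxidases, which act on the lysines that the Plod enzymes modify, 0 rose and 0 fell by edgeR. At an unadjusted p under 0.05, 4 of the 5 passed, against 8.71% of all genes, and the median log2 fold change was 0.27. Lox, whose product is activated by the Bmp1 protease, measured 441 ± 123 CPM in the Fra-2-labelled libraries and 290 ± 31.2 CPM in the controls (SD, n = 4 each; log2 fold change 0.61, edgeR adjusted p = 0.144). Loxl2, the most abundant, measured 1796 ± 199.7 and 1814 ± 180 CPM (edgeR adjusted p = 0.99).

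The genes whose log2 CPM followed each member most closely over the 8 libraries were sought among 9455 named genes that averaged 5 CPM or more. By Pearson's r, given as a description without a p because each is the highest of 9455, these were Entpd5 for Serpinh1 (0.974), Tbcd for P4ha1 (0.987), Pxdc1 for P4ha2 (0.97) and Peg3 for P4ha3 (0.942). They were Shisa3 for Plod1 (0.976), Slc41a2 for Plod2 (0.979), Fkbp5 for Plod3 (0.987), Fbxl12 for Bmp1 (0.985) and the carboxypeptidase M gene for Pcolce (0.989). The points of each pair share their libraries and scaling. No gene of the set was the closest to another of the set.

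Serpinh1 and P4ha3, the most abundant of the 9, lie 932 kb apart on chromosome 7, and Plod3 and Pcolce lie 608 kb apart on chromosome 5. The nearest tested protein-coding neighbours of the 9 genes, 18 in all, included none that passed by edgeR, where 1.02% of all genes passed. Map6, next to Serpinh1, had the smallest adjusted p of them (log2 fold change 0.66, edgeR adjusted p = 0.101). The start of Bmp1 lies 715 bases from Sftpc, the surfactant protein C gene of alveolar epithelium, which measured 63.5 ± 26.9 CPM in the Fra-2-labelled libraries and 44.6 ± 19.1 CPM in the controls (SD, n = 4 each; edgeR adjusted p = 0.83).

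Levels of Xist and of 4 genes on the Y chromosome split each group into 2 female and 2 male libraries. In the females alone the log2 fold change was 0.44 for Serpinh1, 0.30 for P4ha1, 0.25 for Plod2 and 0.29 for Pcolce. In the males alone it was 0.30, 0.01, 0.36 and 0.34 for these genes. An edgeR test of whether the group effect depended on sex called 0 genes, with 294 of all genes at an unadjusted p under 0.05, and the 9 genes had unadjusted edgeR values of p from 0.211 to 0.95 in it.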

How the data were processed

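The measurements are the raw read counts that the authors deposited, 1 column per sample and 1 row per mouse Ensembl gene. Per the labels' protocols, mRNA was selected from 50 ng of total RNA, and its cDNA was amplified and made into libraries with a transposase-based kit. No step that marks the strand is named. The submitters' processing notes name the build GRCh38, a human one, although the identifiers are mouse genes, and the aligner and counter are not stated there. Symbols (97.96% of identifiers), coordinates and exon lengths came from GENCODE M21 (GRCm38), and promoter windows from RefSeq (GRCm38.p6).

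Counts were filtered with filterByExpr (minimum count 10, minimum total 15), scaled by TMM and compared with the two-sided quasi-likelihood F-test of edgeR 4.0.16 in R 4.3.3, with robust dispersions, no covariate and Benjamini-Hochberg adjustment over 15422 genes at 0.05. Standard errors (SE) were derived from the log2 fold change and the F statistic. Intervals are 95%. TPM used the summed exon length. DESeq2 1.42.0, limma 3.58.1, other scalings and filters, the replicate number as a block, sex and left-out libraries were alternatives. The procedure was tested on simulated counts, where it recovered 30% of planted 1.5-fold changes, 80% of 2-fold changes and 96% of 4-fold changes. Within groups, pairs of libraries differed by far more than sampling noise (chi-square 39.4 to 172 per gene), and all 8 were used. The genes and lists were chosen with earlier results of these data known. Named context genes are those that passed, the one with the highest mean CPM and the one with the smallest p of each list. Others (P3h1, Crtap, Fkbp10, Hspa5, P4hb, Furin, Tll1, Tll2, Mia3, Sec24d, Sar1a, Ppib, Pgk1, Col1a1, Col3a1, Col11a2, Egln1, Egln3, Wt1, Comp, Col9a1) were named after their values were seen. Lists hold Ero1a under its older symbol Ero1l.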

Additional observations from a re-analysis of the deposited data

How the results depend on the processing

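The set had 0 members past the threshold in either direction under every alternative run, those without 1 library included. The log2 fold changes of Serpinh1, P4ha1, P4ha3, Plod1, Plod2, Plod3 and Pcolce stayed above 0 in all 22 alternative fits. P4ha2 reversed in the male libraries alone (-0.076). Bmp1 reversed without control 1, and ranged from -0.134 to 0.0265 without 1 library each. The cause was not tested. Over all genes, 111 higher and 46 lower became 272 and 97 in DESeq2, 3 and 0 in the males alone, and 28 and 15 without control 1 and control 2, a fit added after the data were seen. Without 1 library each they ranged from 50 to 153 higher and from 22 to 52 lower, and at an adjusted p under 0.10 the lower genes were 73. Replicate numbers were not taken to pair the samples, since the labels give them no meaning and the deviations of same-numbered libraries correlated at -0.0217, 0.217, 0.11 and 0.333 for numbers 1 to 4, not above 0.1 for each. As a hint from the data, 5 of 8 libraries correlated best with their own number. With replicate number as a block, 137 genes were higher and 53 lower, and Serpinh1 had a log2 fold change of 0.40 (edgeR adjusted p = 0.198), Plod2 0.29 (0.24 as its edgeR adjusted p) and Pcolce 0.35 (SE 0.115, edgeR adjusted p = 0.255, against 0.713 without the block). Scaling to TPM, which lacks the TMM correction and gives all genes a median log2 ratio of 0.0556, left 4 of the 9 genes with groups that did not overlap, against 5.33% of all genes, where CPM left 0. With the longest transcript as length, P4ha1 measured 49.9, P4ha2 36.1, Plod1 60.1, Plod2 261 and Bmp1 92.5 TPM, so that Plod1 stood above P4ha1. Each of the 9 genes held at least 763 counts in every library, and counting error was below the SD between libraries for each gene in each group except P4ha2 in the controls.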

Other observations

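Genes that share the oxygen, iron and 2-oxoglutarate chemistry of the hydroxylases showed no call. Of 9 tested genes of other 2-oxoglutarate enzymes and ascorbate handling, 0 rose and 0 fell by edgeR, with 0 at an unadjusted p under 0.05. Asph, an aspartyl hydroxylase gene and the highest in CPM, measured 212 ± 31.2 CPM in the Fra-2-labelled libraries and 227 ± 17.3 CPM in the controls (SD, n = 4 each). Per length, Egln3 and Egln1 were higher, at 249.5 and 206.4 TPM against 58.7 TPM for Asph. Slc23a2, an ascorbate transporter gene with the smallest p, measured 48.7 ± 3.59 and 41.1 ± 4.74 CPM (edgeR adjusted p = 0.592). Of 15 hypoxia target genes, a class to which P4ha1 and Plod2 are known to belong, 0 rose and 0 fell, 1 had an unadjusted p under 0.05 and the median log2 fold change was 0.08. Ldha, the lactate dehydrogenase gene, measured 164 ± 15.4 and 178 ± 16.8 CPM, and Ndrg1 7.56 ± 2.29 and 5.16 ± 0.672 CPM (edgeR adjusted p = 0.52).

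Ppib, which encodes the cyclophilin B partner of the prolyl 3-hydroxylase complex, averaged 23.4 TPM over the 8 libraries, against 261 TPM for P3h1 and 285 TPM for Crtap, its partners in that complex. The glycolytic gene Pgk1 averaged 10.4 TPM. Whether reads of these genes were lost to near-identical copies in counting was not tested.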
